A study of Homo sapiens with 6 samples.

Results

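The transcripts of 10 genes that write, guide or remove DNA methylation were examined in K562 cells with and without inhibition of EZH2: *DNMT1*, *DNMT3A*, *DNMT3B*, *UHRF1*, *UHRF2*, *TET1*, *TET2*, *TET3*, *TDG* and *MBD4*. They were chosen by name, as the rows of the count files whose Ensembl identifier carries one of these symbols, and all 10 were found among the 60671 genes listed. DNA methylation in vertebrates sits mostly on cytosines followed by guanine (CpG). DNMT1 copies it to the new strand at replication, guided by UHRF1, which binds CpG sites methylated on a single strand, while DNMT3A and DNMT3B place it on unmethylated DNA. The TET enzymes oxidise the methyl group, and the glycosylases TDG and MBD4 cut out oxidised or deaminated bases, which repair then replaces with plain cytosine. EZH2 is the enzyme of Polycomb repressive complex 2 that methylates histone H3 at lysine 27, a mark of repressed chromatin that tends to occupy CpG-rich regions low in DNA methylation.

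The 6 libraries were made from a single clone of K562, a human chronic myeloid leukemia line with erythroid features. The clone carries the doxycycline-inducible fusion Flag-NLS-M.CviPI-Lamin-B1, in which a viral enzyme that methylates cytosine in GpC is tied to a protein of the nuclear lamina, so every library comes from cells that also made a foreign DNA methyltransferase. The 3 control cultures received the vehicle DMSO at 0.1% and the 3 treated cultures received the EZH2 inhibitor GSK343 (EZH2i) at 1 µM, both for 72 h, and all 6 received doxycycline at 1 µg/mL for the last 24 h. Three-prime mRNA sequencing was used, in which each read comes from near the polyadenylated end of a transcript.

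Reads on genes numbered 6327544 to 8987768 per library. EZH2i replicate 3 stood apart with 12.7% of its listed reads on no gene, against 7.43% to 8.51% in the other 5 libraries. Among 12364 genes with enough reads to be tested, 413 were called higher and 114 lower in EZH2i at an adjusted p under 0.05 (quasi-likelihood test of edgeR, Benjamini-Hochberg), which is 3.34% and 0.922% of the genes tested. Without DMSO replicate 1, 2 or 3 the calls were 180, 189 and 185 higher and 33, 20 and 55 lower, and without a filter on low counts 349 were lower. The transcript of *EZH2* itself was at 334 ± 22.9 CPM (the usual count scaled to the depth of each library, here its reads on genes and TMM factor) in DMSO and 292 ± 20.6 CPM in EZH2i (SD, n = 3 each). All 14 markers of K562 cells had reads, 13 of them enough for the test, and their summed level was 1753 to 1794 CPM in DMSO and 1881 to 1894 CPM in EZH2i, with *GYPB* the most abundant. Of the 13, *HBZ*, *HBG2* and *ALAS2*, which serve embryonic or fetal globin and heme, were called higher, with log2 fold changes of 1.15, 0.58 and 0.50; the last 2 were not called without DMSO replicate 1, 2 or 3, with an adjusted p between 0.0624 and 0.138. The summed level of 14 markers of other cell types was 110 to 117 CPM and 111 to 116 CPM, most of it *EPCAM*, while *MS4A1* and *KRT5* were at 0 in all 6 libraries. Within that sum, *EPCAM* was at 77.2 ± 5.46 CPM in DMSO and 63.7 ± 2.7 CPM in EZH2i, without overlap (log2 fold change -0.28, unadjusted p = 0.0188, adjusted p = 0.156, edgeR). *LYZ*, a lysozyme, was called higher with a log2 fold change of 0.62, and without any 1 library had an adjusted p between 0.053 and 0.16 (edgeR). *COL1A1*, a collagen, had 8, 11 and 19 reads in DMSO and 30, 49 and 55 in EZH2i and passed the filter on low counts only through the EZH2i libraries, so its call is not used.

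Because CpG is the site on which these proteins act, the 250 bases before the annotated start are shown for 3 of the genes, with each CpG in capitals. They are *DNMT1*, the gene of the 10 whose change passed the test, *UHRF1*, which recruits its protein, and *TET2*, whose levels lay on the other side of the controls. The sequences are RefSeq promoter windows on GRCh38.p14, read 5′ to 3′ along the gene.

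DNMT1, chr19:10194954-10195203, minus strand: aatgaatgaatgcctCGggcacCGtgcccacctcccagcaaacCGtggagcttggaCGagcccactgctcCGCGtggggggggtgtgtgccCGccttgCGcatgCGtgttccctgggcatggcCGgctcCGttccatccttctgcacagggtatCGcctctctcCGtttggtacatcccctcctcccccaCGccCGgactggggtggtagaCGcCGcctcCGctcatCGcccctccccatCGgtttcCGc
UHRF1, chr19:4909251-4909500, plus strand: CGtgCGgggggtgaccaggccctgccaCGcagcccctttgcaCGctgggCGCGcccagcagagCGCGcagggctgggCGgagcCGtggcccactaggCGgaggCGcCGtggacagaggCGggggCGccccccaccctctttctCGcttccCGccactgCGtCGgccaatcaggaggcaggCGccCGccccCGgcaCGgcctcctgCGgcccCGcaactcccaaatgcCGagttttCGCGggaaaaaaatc
TET2, chr4:105145625-105145874, plus strand: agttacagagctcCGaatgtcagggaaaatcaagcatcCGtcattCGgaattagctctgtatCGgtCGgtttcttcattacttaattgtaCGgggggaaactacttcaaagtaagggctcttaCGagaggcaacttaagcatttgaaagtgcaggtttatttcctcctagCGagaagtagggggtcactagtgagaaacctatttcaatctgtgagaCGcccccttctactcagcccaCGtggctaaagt

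These windows hold 21, 28 and 10 CpG sites, and the median over 35114 such windows of all genes was 11. *TET2* has a second start, not shown, whose window holds 34 CpG sites, more than 93.2% of all windows. All 10 genes matched at least 1 RefSeq start. Across the RefSeq starts listed, the counts ran from 3 CpG sites for *DNMT3B* to 41 for the third start of *UHRF1*. The listed starts of *DNMT1*, *DNMT3B* and *UHRF1* lie inside the wider spans that GENCODE gives these genes, so other transcripts begin further upstream and their promoters were not analysed here. The window of *UHRF1* shown, the first of 3, has the word GCGGGAAA, the reverse complement of TTTCCCGC, 14 bases before the start, and the second has TTTCGCGC 160 bases before. TTTCCCGC, TTTCGCGC, TTTGCCGC and TTTGGCGC, searched on both strands, are forms of the site bound by E2F factors, which drive genes of DNA replication. Of the 10 genes, 1, *UHRF1*, had such a word before any start, against 3.4% of 27303 genes. A gene with more starts has more chances to match, and of the 35114 single windows 2.79% had such a word. *DNMT1* had none in this window, which says nothing of E2F binding elsewhere.

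The levels of the 10 genes spanned a wide range. In DMSO, the means ran from 527 CPM for *DNMT1* to 10.6 CPM for *TET3* and 7.77 CPM for *UHRF1*. All counts hold only uniquely placed reads, and near the transcript ends of *UHRF1*, *TDG* and *TET1* 75.8%, 16.2% and 14.6% of the 50-base windows recur elsewhere, so their places below are those of that count. The order from high to low was *DNMT1*, *MBD4*, *TET1*, *DNMT3B*, *TET2*, *TDG*, *DNMT3A*, *UHRF2*, *TET3* and *UHRF1*. The ranges over the 3 DMSO libraries overlapped between *TET1* and *DNMT3B* and between *TET3* and *UHRF1*, and between no other neighbours in this order. In EZH2i, *TET3* stood above *UHRF2* and the rest of the order was as in DMSO, with overlap between *DNMT3B* and *TET2*, *TDG* and *DNMT3A*, and *TET3* and *UHRF2*. Three-prime reads sample each transcript near its end, so these CPM were not divided by length. Per kilobase of annotated exon, *MBD4* came first in DMSO with 56.6 CPM per kb and *DNMT1* second with 34.2 CPM per kb, and 1 of the 10 genes kept its place.

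**Figure D1:**
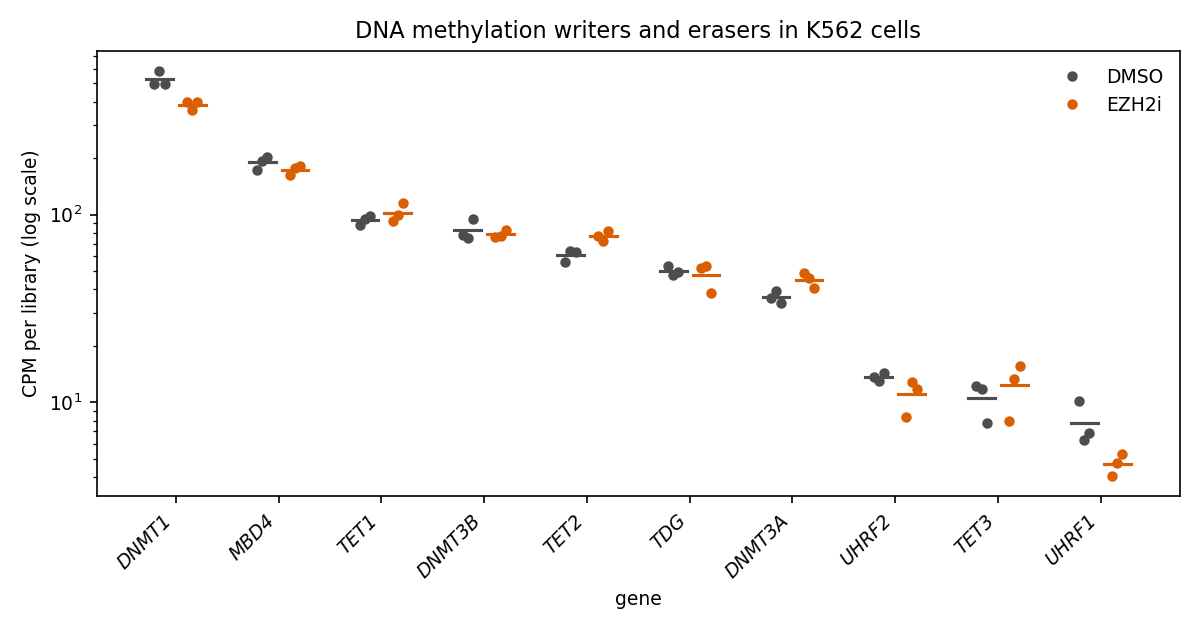
Level of each of the 10 genes in the 6 libraries, in CPM on a log axis, ordered by the DMSO mean. Points are libraries (grey DMSO, orange EZH2i) and bars are group means: the EZH2i points of *DNMT1* lie between 359 and 398 CPM, all below the DMSO points, which lie between 498 and 583 CPM.

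Of the 10 genes, 1 was called lower and 0 higher in EZH2i, where 4.26% of all tested genes were called in either direction (0.922% lower, 3.34% higher). An unadjusted p under 0.05 in edgeR's test, which 19.1% of all tested genes had (10.9% higher, 8.2% lower), was also found for *UHRF1* (lower) and *DNMT3A* and *TET2* (higher), and DESeq2 and limma-voom called no further gene of the 10. For 2 genes every EZH2i library was above every DMSO library and for 3 every one was below, where 13.3% and 11.1% of all tested genes were so. The median log2 fold change of the 10 was -0.07, and that of all tested genes was -0.00021. The individual changes ran from -0.71 for *UHRF1* to 0.33 for *TET2*.

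**Figure D2:**
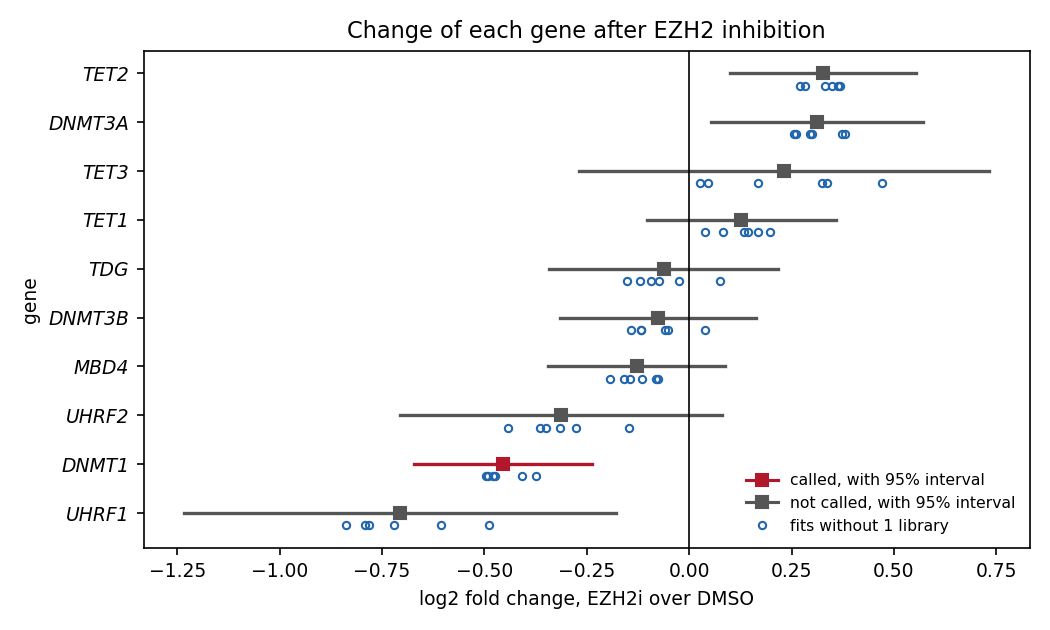
Log2 fold change of each gene, EZH2i over DMSO, from edgeR (squares) with its 95% interval (lines), and the values of the 6 fits that each left out 1 library (open circles). *DNMT1*, in red, is the gene called, at -0.45, and the intervals of *DNMT3B*, *UHRF2*, *TET1*, *TET3*, *TDG* and *MBD4* include 0.

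*DNMT1* (ENSG00000130816, chr19:10133342-10231286, minus strand), the maintenance methyltransferase, was at 498, 583 and 500 CPM in DMSO replicates 1, 2 and 3. In EZH2i replicates 1, 2 and 3 it was at 396, 359 and 398 CPM. The groups did not overlap. *DNMT1* fell by 0.45 on the log2 scale, a ratio of 0.73 (95% interval of the log2 fold change -0.67 to -0.24, adjusted p = 0.019, edgeR). The adjusted p was 0.106 without DMSO replicate 2, its highest library, and 0.0821 without EZH2i replicate 2, its lowest. Over all 13 alternatives the adjusted p lay between 0.000535 and 0.106, with 11 under the threshold. From bulk libraries, fewer cells that make a transcript and less of it per cell cannot be told apart. Of its exon bases, 83 are shared with *S1PR2* on the same strand, which had 54 to 86 reads per library against 2784 to 4921 for *DNMT1*. The 3 genes other than the 10 whose log2 CPM followed *DNMT1* most closely over the 6 libraries were *NVL*, *MAU2* and *PDCD5*, with Pearson's r of 0.99, 0.99 and 0.986 as the highest among 12354 genes.

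*UHRF1* (ENSG00000276043, chr19:4903080-4962154, plus strand) was at 10.1, 6.27 and 6.9 CPM in DMSO and at 4.05, 4.78 and 5.28 CPM in EZH2i, in replicates 1, 2 and 3. All EZH2i libraries were below all DMSO libraries, but the counts behind these values were only 30 to 65 reads. The log2 fold change of -0.71 (95% interval -1.23 to -0.18, unadjusted p = 0.0117, adjusted p = 0.122, edgeR) did not pass the threshold over all genes. Much of this transcript cannot be counted by reads of the study's length. Of the windows of 50 bases in its exons, 43.5% also occur elsewhere in GRCh38, and of those in the last 500 bases of its coding transcripts 75.8% do. The main second place is chr12:20551569-20554360, inside *PDE3A*, with 1716 such windows. Reads with more than 1 alignment, 21.4% to 22.3% of the listed reads, enter no gene's count, so the low level of *UHRF1* is that of its uniquely placed reads and does not rank it against the other genes.

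*UHRF2* (ENSG00000147854, chr9:6413151-6507054, plus strand), the paralog of *UHRF1*, was at 13.7, 13 and 14.4 CPM in DMSO and at 8.37, 12.8 and 11.9 CPM in EZH2i. The groups were separated by the narrow gap between 12.8 and 13 CPM. Its log2 fold change was -0.31 (95% interval -0.71 to 0.08, adjusted p = 0.375, edgeR), and 1.58% of its exon windows were repeated elsewhere. The value without EZH2i replicate 1, its lowest library, was -0.15.

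The de novo enzymes had no called change. *DNMT3A* (ENSG00000119772, chr2:25227855-25342590, minus strand) was at 35.9, 39.3 and 33.9 CPM in DMSO and at 48.8, 46 and 40.6 CPM in EZH2i. Every EZH2i library was above every DMSO library, with a log2 fold change of 0.31 (95% interval 0.05 to 0.57, unadjusted p = 0.0213, adjusted p = 0.166, edgeR) that did not pass. *DNMT3B* (ENSG00000088305, chr20:32762385-32809359, plus strand), at 78.1, 75.1 and 95.4 CPM in DMSO and 76, 76.7 and 83.3 CPM in EZH2i, had overlapping groups and a log2 fold change of -0.08 (95% interval -0.32 to 0.16, adjusted p = 0.77, edgeR). Without DMSO replicate 3, its highest library, the value was 0.04, and without DMSO replicate 2 it was -0.14. Three-prime reads do not separate the long and short forms of *DNMT3A*, which share their end. Among the reads of the 3 methyltransferases, *DNMT1* took 79.4% to 83.6% in DMSO and 74.5% to 76.3% in EZH2i, while *DNMT3A* took 5.4% to 5.86% and 7.78% to 9.55%. Neither share overlapped between the groups, and the share of *DNMT3B* did. These shares are given without a test, and they depend on each other, since a share can fall because another member of the family rises.

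**Figure D3:**
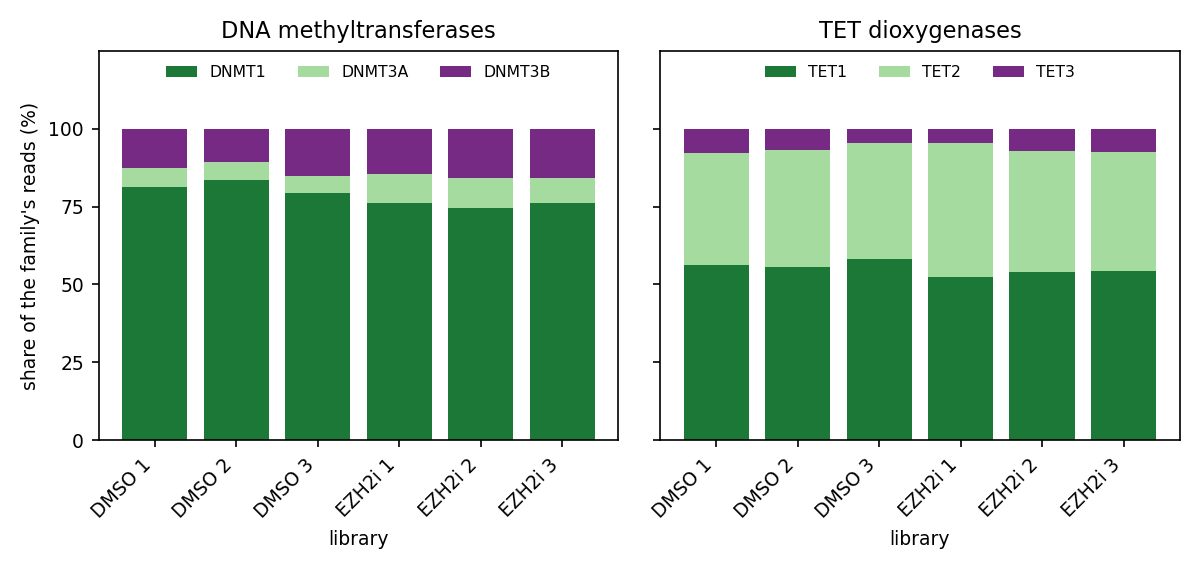
Share of each gene among the reads of its family in each library, in percent of reads, for the 3 DNA methyltransferases (left) and the 3 TET dioxygenases (right), with libraries on the horizontal axis. *DNMT1* holds at least 79.4% of its family in the DMSO libraries and at most 76.3% in the EZH2i libraries.

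All 3 TET transcripts were present. *TET1* (ENSG00000138336, chr10:68560337-68694487, plus strand) was the most abundant, at 88.1, 94.6 and 98.9 CPM in DMSO and 92.8, 100 and 115 CPM in EZH2i, with overlapping groups and a log2 fold change of 0.13 (95% interval -0.10 to 0.36, adjusted p = 0.573, edgeR). That value was 0.04 without EZH2i replicate 3, 0.08 without DMSO replicate 1 and 0.20 without EZH2i replicate 1. Of the windows in the last 500 bases of its transcript 14.6% recur elsewhere, so its count may also miss reads. *TET2* (ENSG00000168769, chr4:105145875-105279816, plus strand), often mutated in myeloid malignancy, was at 56.3, 64.3 and 63 CPM in DMSO. In EZH2i it was at 76.6, 72.4 and 81.7 CPM, above all controls. Its log2 fold change was 0.33 (95% interval 0.10 to 0.55, unadjusted p = 0.00762, adjusted p = 0.0994, edgeR), short of the threshold, and its adjusted p lay between 0.0852 and 0.311 over the 13 alternatives. Without EZH2i replicate 3, its highest library, the value was 0.28 (adjusted p = 0.245, edgeR). *TET3* (ENSG00000187605, chr2:73984910-74108176, plus strand) was low and variable, at 12.2, 11.7 and 7.81 CPM in DMSO and 7.97, 13.3 and 15.7 CPM in EZH2i. With 59 to 110 reads per library its log2 fold change of 0.23 had a wide 95% interval, -0.27 to 0.73 (adjusted p = 0.647, edgeR). It was 0.03 without EZH2i replicate 3, 0.05 without DMSO replicate 3 and 0.47 without EZH2i replicate 1. Its exons share 390 bases on the same strand with the lncRNA ENSG00000235499, which had 0 reads in all 6 libraries. Within the family, *TET1* took 55.4% to 58.3% of the reads in DMSO and 52.3% to 54.2% in EZH2i. *TET2* took 36% to 37.7% and 38.4% to 43.2%. Both were without overlap between the groups and without a test. These shares depend on each other, and the mean level of *TET1* itself was 93.9 CPM in DMSO and 103 CPM in EZH2i.

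The glycosylases showed no called change. *MBD4* (ENSG00000129071, chr3:129430947-129440179, minus strand), which removes thymine or uracil opposite guanine at CpG sites, was at 173, 193 and 203 CPM in DMSO and 163, 177 and 182 CPM in EZH2i, with a log2 fold change of -0.13 (95% interval -0.35 to 0.09, adjusted p = 0.536, edgeR) that was -0.08 without DMSO replicate 3 or EZH2i replicate 1. Its exons share 279 bases with *IFT122* on the opposite strand, which had 95 to 188 reads per library. *TDG* (ENSG00000139372, chr12:103965822-103988874, plus strand), which excises oxidised forms of methylcytosine, was at 53, 47.9 and 49.3 CPM in DMSO and 52, 53.4 and 38.1 CPM in EZH2i. Its lowest value was in EZH2i replicate 3, the library with the most reads on no gene. The same library held the highest values of *TET1*, *TET2* and *TET3*. The log2 fold change of *TDG* was -0.06 (95% interval -0.34 to 0.22, adjusted p = 0.846, edgeR) and 0.08 without that library. Without EZH2i replicate 2 it was -0.15. Its exons share 168 bases on the same strand with the lncRNA ENSG00000288744, which was not analysed here. Of the exon windows of *TDG*, 30.9% recur elsewhere in the genome, with *TDGP1* as 1 of the copies, and 16.2% of those in the last 500 bases of its coding transcripts do, so its count too is of uniquely placed reads.

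The wider machinery was followed in 5 lists of genes, to be read against the 3.34% of all tested genes called higher and 0.922% called lower. Partners and regulators of the writers had 0 calls among 12 tested genes of 15 and a median log2 fold change of -0.00044. They included *USP7*, the most abundant at 241 CPM, which stabilises DNMT1 protein. At an unadjusted p under 0.05, against 19.1% of all tested genes, edgeR's test gave 3 of the 12, *HELLS* and *CDCA7* lower and *CDCA7L* higher. The list named methyl-CpG readers, which also holds proteins not known to bind methylated CpG such as MBD5 and CTCF, had 0 calls among 10 tested and a median of 0.08. *CTCF*, a factor whose binding CpG methylation can block, was its most abundant gene at 156 CPM. With the same 19.1% of all tested genes beside it, edgeR's test gave 2 of the 10 at an unadjusted p under 0.05, *ZBTB38* and *MBD5*, both higher. Among 18 base excision repair genes, *FEN1*, a flap nuclease of replication and repair, was called lower and none higher, with a median of -0.09 and *PARP1* the most abundant at 354 CPM. At an unadjusted p under 0.05, edgeR's test gave 2 of the 18, *FEN1* and *PARP2*, both lower.

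Genes of the methyl donor supply had 2 calls higher and 0 lower among 11 tested (3.34% and 0.922% of all tested genes), while the median log2 fold change was -0.28. At an unadjusted p under 0.05 (19.1% of all tested genes), edgeR's test gave the same 2 higher and 4 lower, *MAT2A*, *MAT2B*, *AHCY* and *SHMT2*. Without overlap between the groups, 2 of the 11 were higher and 4 lower (13.3% and 11.1% of all tested genes). *NNMT*, which spends S-adenosylmethionine on nicotinamide, rose from a mean of 19.4 ± 2.4 CPM in DMSO to 34.4 ± 4.44 CPM in EZH2i (± SD over 3 libraries) by 0.83 on the log2 scale (edgeR, adjusted p = 0.00337), a call kept in all 6 fits that left out 1 library. *AHCYL2*, a relative of the enzyme that breaks down S-adenosylhomocysteine, rose from a mean of 5.61 ± 0.572 CPM to 11.1 ± 0.969 CPM by 0.99 on the log2 scale (edgeR, adjusted p = 0.0113), with an adjusted p of 0.063 without DMSO replicate 2. *AHCYL1* was the most abundant gene of the list at 615 CPM. *AHCY*, the enzyme itself, was at 149 ± 29.4 CPM and 110 ± 13.5 CPM, a difference of -0.43 on the log2 scale (edgeR, adjusted p = 0.0768) that did not pass. Among 13 tested cofactors and partners of the TET enzymes, 1 was called lower and 0 higher (0.922% and 3.34% of all tested genes), with a median of -0.13 and *GADD45A* the most abundant at 258 CPM. At an unadjusted p under 0.05 (19.1% of all tested genes), edgeR's test gave 5 of the 13, *IDH1*, *D2HGDH* and *OGT* lower and *IDH2* and *GADD45A* higher. The gene called was *IDH1*, which makes the 2-oxoglutarate that TET enzymes consume, at 33.3 ± 4.02 CPM in DMSO and 20.2 ± 2.33 CPM in EZH2i, a difference of -0.72 on the log2 scale (edgeR, adjusted p = 0.00974). Its adjusted p was 0.0589 and 0.0554 without DMSO replicates 1 and 2. The mitochondrial *IDH2* was at 142 ± 5.64 CPM and 173 ± 5.25 CPM, a difference of 0.29 on the log2 scale (edgeR, adjusted p = 0.109) that did not pass.

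**Figure D4:**
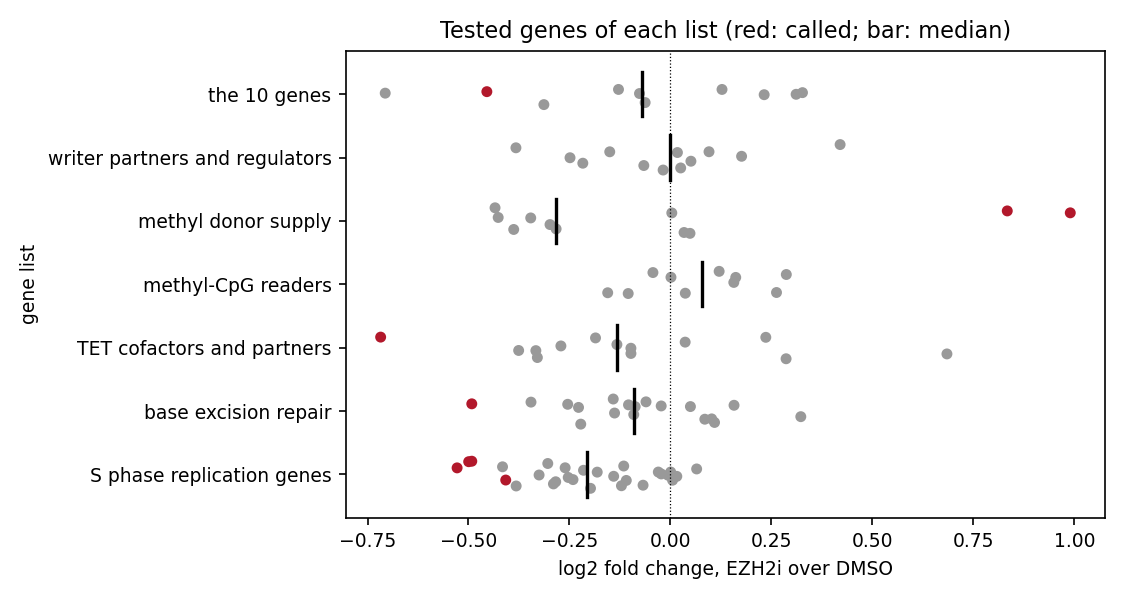
Log2 fold change, EZH2i over DMSO, of every tested gene of the 10 and of 6 lists, with called genes in red and a bar at each median; the vertical scatter within a row only separates points. Of the 28 S phase replication genes, 24 lie below 0.

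Transcription of *DNMT1* and *UHRF1* is known to rise when cells replicate their DNA, so replication genes were set beside them. Of 28 S phase genes, 4 were called lower and 0 higher (0.922% and 3.34% of all tested genes), with a median log2 fold change of -0.21 and 24 of the 28 below 0. At an unadjusted p under 0.05 (8.2% of all tested genes in the lower direction), edgeR's test gave 11 of the 28, all lower. The 4 called were *CDC45* of the replicative helicase (231 ± 24.2 to 160 ± 19.8 CPM), *RRM1* of ribonucleotide reductase (364 ± 4.87 to 257 ± 57 CPM), *FEN1* (251 ± 37 to 179 ± 28.8 CPM) and *RFC4* of the clamp loader (115 ± 10.8 to 86.4 ± 4.77 CPM; SD, n = 3 each). Their adjusted p in edgeR's test was 0.0152, 0.0411, 0.0405 and 0.0397. Leaving out 1 library ended some of these calls. *CDC45* had an adjusted p of 0.1 without DMSO replicate 1, *RRM1* of 0.135, 0.131 and 0.109 without DMSO replicates 1, 2 and 3, and *FEN1* of 0.0915, 0.215, 0.0651 and 0.0676 without DMSO replicates 1, 2 and 3 and EZH2i replicate 1 (edgeR). The log2 fold change of *RRM1* was -0.50, and -0.33 without EZH2i replicate 1, its lowest library. *RFC4* had an adjusted p of 0.108, 0.0658, 0.16, 0.123 and 0.0575 without DMSO replicates 1, 2 and 3 and EZH2i replicates 2 and 3 (edgeR). *MCM7*, the most abundant of the list, was at 399 ± 5.08 and 362 ± 7.18 CPM (SD, n = 3 each). The summed level of the list was 3342 to 3571 CPM in DMSO and 2818 to 2980 CPM in EZH2i, so the groups did not overlap there either. Per 100 CPM of that sum, a measure chosen after the values were seen, *DNMT1* was at 13.9, 16.5 and 15 CPM in DMSO. In EZH2i it was at 13.8, 12.1 and 14.1 CPM, and the groups overlapped only between DMSO replicate 1 and EZH2i replicate 3. *UHRF1* was at 0.284, 0.177 and 0.207 CPM against 0.141, 0.16 and 0.188 CPM on the same scale. Here the overlap was only between DMSO replicate 2 and EZH2i replicate 3. The part of replication genes in the lower *DNMT1* level was not tested.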

How the data were processed

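K562 libraries from 3 DMSO and 3 EZH2i cultures were used. The authors followed the kit's recommended pipeline on hg38 and deposited raw read counts per Ensembl gene; the submitters' processing notes list STAR 2.6.0c and HTSeq 0.11.2. Their annotation came from an Ensembl release, and the strand setting is not given in the sources used here. Their DESeq2 comparison table (mean counts, log2 fold changes and p-values) was not used. Rows naming no gene held 32.1% to 36.4% of listed reads and were left out. Depth was 6327544 to 8987768 reads on genes.

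The test was the quasi-likelihood test of edgeR 4.0.16 under R 4.3.3 (TMM, filterByExpr with a minimum count of 10, glmQLFit defaults, glmQLFTest, two-sided, Benjamini-Hochberg over all 12364 tested genes, threshold 0.05), with DESeq2 1.42.0 and limma 3.58.1 as alternatives. The standard error is the log2 fold change divided by the square root of F. With 3 against 3, an exact permutation test cannot go below 0.10. Symbols and positions come from GENCODE 44 on GRCh38, the authors' build, and gave 60401 identifiers a symbol. Repeated windows were exact matches of 50 bases on either strand of chromosomes 1 to 22, X, Y and M. The scripts were tested on simulated data. Replicate pairs within a group differed beyond sampling noise (chi-square per degree of freedom 4.25 to 11.5). The genes and lists were chosen with earlier results of these data known. Named were the 10 genes, EZH2, genes overlapping their exons, called genes and the most abundant gene of each list, and the 3 genes most like each called one; other names were chosen after their values were seen.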

Additional observations from a re-analysis of the deposited data

How the results depend on the processing

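The sign of the log2 fold change was the same under all 13 alternatives for 8 of the 10 genes. It changed for *DNMT3B* without DMSO replicate 3 (0.039; -0.14 to 0.04 over the fits without 1 library) and for *TDG* without EZH2i replicate 3 (0.0755; -0.15 to 0.08), both not past the threshold. The log2 fold change of *DNMT1* lay between -0.50 and -0.37 in the 6 fits without 1 library. In those fits, 0 to 1 of the 10 genes were called lower, 180 to 412 of all genes higher and 20 to 124 lower. The lowest counts came without a DMSO library, while without EZH2i replicate 1 they were 412 and 124, and the cause was not tested. Without a filter on low counts 349 genes were called lower, again with no cause tested, and no further one of the 10. By place in the order of levels, 1 of the 10 genes in DMSO and 2 in EZH2i kept theirs when CPM was divided by exon length.

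The deviations from the group means correlated at -0.0573, -0.018 and -0.0207 for replicate numbers 1, 2 and 3. These values show no pairing by number over all tested genes together, but cannot exclude a weaker shared effect in some genes. Under a replicate block the log2 fold change of *DNMT1* was -0.45 (adjusted p = 0.0236, edgeR), and the block changed no call of the 10 genes. It gave 450 genes higher and 149 lower, against 413 and 114 without the block. Counts of 30 to 65 reads for *UHRF1* and 59 to 110 for *TET3* limit what can be seen of these genes.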

Other observations

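Germline genes that are normally silenced through methylated CpG promoters were listed as a further readout. Of 16 such genes, 9 had at most 3 reads in every library of either group, *DAZL*, *TDRD1*, *ASZ1* and *SLC25A31* among them with 0 reads throughout, and 5 were tested. *PRAME*, a cancer-testis antigen already abundant in K562 cells, was the highest at 2711 CPM. *TUBA3C*, a testis tubulin, had 3, 4 and 1 reads in the DMSO libraries against 24, 19 and 25 in the EZH2i libraries. It was the 1 gene of the 5 called higher, where 3.34% of all tested genes were, but it passed the filter on low counts only through the EZH2i libraries, where it is high, and so had to differ. It also has near-identical paralogs, so its count is uncertain.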
